A study of Mus musculus with 15 samples.

Results

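The genes described here are 10 genes of the circadian clock, Nr1d1, Nr1d2, Per1, Per2, Per3, Dbp, Tef, Hlf, Arntl and Clock, measured in sorted ventral midbrain cells of Pitx3-GFP mice. Here green fluorescent protein (GFP) marks cells that use Pitx3, the gene of a transcription factor of midbrain dopamine neurons. The 10 genes were picked by symbol because Nr1d2 RNA was strongly higher at birth (P0) than at embryonic day 16 (E16), so values from E16 to P0, and from embryonic day 14 (E14) to P0, are given as a description with no test. All 10 were among the 21566 genes of a sorted experiment, and 6 of them (Nr1d2, Per2, Tef, Hlf, Arntl and Clock) were among the 10781 genes of a time series. Nr1d1, Per1, Per3 and Dbp were not analysed in the time series, whose table held no genes of low abundance. In the sorted GFP+ cells these were the 4 members with the fewest reads.

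The sorted experiment compared GFP+ with GFP- cells at E14, and the time series followed GFP+ cells through E14, E16 and P0, with 3 libraries in each of the 5 groups. All 15 samples carried the Pitx3-GFP genotype and were purified by flow sorting, with no other treatment named; whether the mice had 1 or more copies of the reporter allele is not given in the sources used here. Tissue came from 3 litters, per the series' design text, which does not say that each library had its own litter, so p-values measure the spread between these libraries, which may be technical. The labels name dopamine neurons as the cell type of every sample, GFP- samples included. The 9 dopamine neuron markers examined were all higher in GFP+ cells, with summed levels of 76096 to 83752 normalized reads against 5006 to 6507 in GFP- cells, so the label did not hold for the GFP- libraries. The sorted libraries held 17369191 to 22374153 reads and the time series libraries 17910017 to 33386535 over the genes of their table.

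The clock is a feedback loop of transcription that runs in most cells over about a day. CLOCK and BMAL1 (the product of Arntl) form a dimer that binds E-box sequences and drives the period and cryptochrome genes, whose proteins in turn repress the dimer. The same dimer drives Nr1d1 and Nr1d2, which encode the nuclear receptors REV-ERB alpha and REV-ERB beta; these repress Arntl through a response element that the ROR receptors also bind. Dbp, Tef and Hlf encode related transcription factors of the PAR bZIP family, which bind D-box sequences and carry rhythm to output genes. RNA of several of these genes changes with the hour of the day, and the hour at which tissue was taken is not given in the sources used here. A difference between ages therefore cannot be told apart from a difference in the hour of collection.

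The promoters of 4 members are shown because their RNA differed most between ages or between GFP+ and GFP- cells. They come from RefSeq on GRCm38.p6 and run from 250 bases before to 50 bases after an annotated start, 5′ to 3′ on the gene's strand. Capitals mark a match on either strand to an E-box (CACGTG), an E-prime box (CACGTT), a D-box (TTANGTAA) or the core of the REV-ERB and ROR element (AGGTCA). No member had a promoter in which matches of 2 of these motifs overlapped. Nr1d2 is shown at chr14:18239057-18239356 (minus strand), the second Tef start at chr15:81811164-81811463 (plus strand), the second Arntl start at chr7:113207261-113207560 (plus strand) and Hlf at chr11:90390868-90391167 (minus strand).
Nr1d2 promoter: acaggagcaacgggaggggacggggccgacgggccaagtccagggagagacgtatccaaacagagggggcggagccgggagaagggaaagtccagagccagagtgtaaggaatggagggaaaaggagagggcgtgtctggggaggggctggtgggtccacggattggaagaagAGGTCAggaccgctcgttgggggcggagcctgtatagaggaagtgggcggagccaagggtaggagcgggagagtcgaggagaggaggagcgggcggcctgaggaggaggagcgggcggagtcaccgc
Tef promoter: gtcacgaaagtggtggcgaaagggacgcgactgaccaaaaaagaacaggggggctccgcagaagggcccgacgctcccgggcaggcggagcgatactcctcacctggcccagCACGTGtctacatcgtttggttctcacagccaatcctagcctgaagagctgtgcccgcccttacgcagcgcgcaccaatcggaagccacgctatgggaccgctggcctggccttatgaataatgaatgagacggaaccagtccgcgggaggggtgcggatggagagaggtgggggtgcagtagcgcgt
Arntl promoter: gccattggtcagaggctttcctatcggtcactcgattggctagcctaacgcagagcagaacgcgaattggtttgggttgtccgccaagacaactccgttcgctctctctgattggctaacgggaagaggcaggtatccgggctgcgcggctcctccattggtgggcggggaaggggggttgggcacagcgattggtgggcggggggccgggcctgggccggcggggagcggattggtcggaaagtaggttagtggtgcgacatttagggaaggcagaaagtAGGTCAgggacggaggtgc
Hlf promoter: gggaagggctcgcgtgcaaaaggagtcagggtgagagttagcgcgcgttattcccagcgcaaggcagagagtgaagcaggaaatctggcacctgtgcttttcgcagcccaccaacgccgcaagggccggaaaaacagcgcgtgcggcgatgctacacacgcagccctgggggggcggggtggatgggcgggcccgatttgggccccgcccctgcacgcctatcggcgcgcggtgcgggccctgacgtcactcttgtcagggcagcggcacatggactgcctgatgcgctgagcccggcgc
The Nr1d2 window held an AGGTCA match starting 77 bases upstream of the start, and the Tef window a CACGTG match 138 bases upstream. The other Tef start had a CACGTG match 127 bases upstream. The Arntl window held AGGTCA 31 bases past the start, and the Hlf window held none of the 4 motifs. Of the 14 promoter windows of 9 members (the table used held no Per2 row), others with a match were Nr1d1 (CACGTT, 28 bases upstream), Per1 (CACGTG and AGGTCA, 166 and 137 upstream), Per3 (TTANGTAA, 205 and 158 upstream) and Clock (AGGTCA, 119 upstream). Among all 32851 promoter windows of this length, 7.15% held CACGTG, 4.68% CACGTT, 2.32% TTANGTAA and 16.3% AGGTCA. A match describes letters and is not a site shown to be bound.

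The sorted experiment asked how GFP+ cells differed from the other cells of the E14 ventral midbrain. Among the clock genes, Hlf and Clock RNA were higher in GFP+ cells and Arntl and Tef RNA were lower, while the REV-ERB and period genes and Dbp did not pass the test. The largest difference was in Hlf, 5.63-fold higher in GFP+ cells. Values are the authors' normalized reads, and differences were tested with limma on log2(normalized reads + 1), two-sided, with Benjamini-Hochberg adjustment over 18260 genes and a threshold of 0.05. In these bulk samples, fewer cells of a type and less RNA per cell cannot be told apart.

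Hlf (chromosome 11, 90336536 to 90390895, minus strand, GRCm38) stood at 43.1, 29.8 and 28.0 normalized reads in GFP- replicates 1 to 3 and at 171, 211 and 191 in GFP+ replicates 1 to 3. Every GFP+ library was above every GFP- library. The means were 33.6 ± 8.24 in GFP- and 191 ± 19.9 in GFP+ cells (SD, n = 3), a log2 difference of 2.49 (SE 0.21, limma Benjamini-Hochberg adjusted p = 3.11e-06). The other PAR bZIP factors did not follow Hlf.

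Tef (chromosome 15, 81802421 to 81826863, plus strand) was at 830, 830 and 780.04 normalized reads in GFP- and 561, 559 and 614 in GFP+ libraries, with no overlap. Its means of 813 ± 28.7 and 578 ± 30.9 (SD, n = 3) gave a log2 difference of -0.49 (SE 0.09, limma adjusted p = 0.00118, Benjamini-Hochberg). Dbp, the PAR bZIP gene known for a wide daily swing in many tissues, was at 70.0, 70.0 and 59.5 in GFP- and 71.8, 63.8 and 69.1 in GFP+ libraries. These ranges overlapped, and the log2 difference of 0.04 (SE 0.19) did not pass (limma adjusted p = 0.897). Within 1 gene family, 1 member was thus higher in GFP+ cells, 1 was lower and 1 did not pass the test.

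The genes of the activating dimer differed in opposite directions. Arntl (chromosome 7, 113207465 to 113314126, plus strand) was at 333, 350.01 and 298 normalized reads in GFP- and 182, 219 and 175 in GFP+ libraries, so all 3 GFP+ values lay below all 3 GFP- values. The means were 327 ± 26.4 and 192 ± 23.7 (SD, n = 3), a log2 difference of -0.77 (SE 0.13, limma Benjamini-Hochberg adjusted p = 0.000887). Clock (chromosome 5, 76209868 to 76304792, minus strand), the partner of Arntl, was at 1721, 1415 and 1302 in GFP- and 2662, 1786 and 2018 in GFP+ libraries. The lowest GFP+ library was just above the highest GFP- library, and the first GFP+ library stood highest. Its log2 difference of 0.53 (SE 0.14) passed with a limma adjusted p of 0.0153 (Benjamini-Hochberg). The call for Clock was lost without GFP- replicate 2 (0.51, adjusted p = 0.0602 by limma) and without GFP- replicate 3 (0.45, adjusted p = 0.0748 by limma).

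The REV-ERB genes were not called. Nr1d2 (chromosome 14, 18204054 to 18239127, minus strand) was at 292, 297 and 230 normalized reads in GFP- and 324, 371 and 285 in GFP+ libraries, ranges that overlapped. The log2 difference was 0.26 (SE 0.14, limma Benjamini-Hochberg adjusted p = 0.192); with the replicate number as a block, the limma adjusted p was 0.0318, past the threshold. Nr1d1 was scarce, at 17.2, 38.5 and 18.4 in GFP- and 15.6, 17.6 and 20.2 in GFP+ libraries. The second GFP- library was the highest, and the log2 difference of -0.37 (SE 0.36) did not pass (limma adjusted p = 0.485).

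The period genes, the repressors of the loop, were not called either. Per1 was at 89.3, 94.5 and 84.0 normalized reads in GFP- and 106, 110 and 111 in GFP+ libraries, a log2 difference of 0.29 (SE 0.16, limma Benjamini-Hochberg adjusted p = 0.195) although the groups did not overlap. Per2 was at 219, 208 and 229 in GFP- and 153, 214 and 214 in GFP+ libraries (-0.19, limma adjusted p = 0.383). Per3 was at 87.2, 68.3 and 50.7 in GFP- and 58.6, 48.1 and 48.9 in GFP+ libraries (-0.37, SE 0.24, limma adjusted p = 0.270). For Per2 and Per3 the groups overlapped.

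In all, 2 of the 10 members were higher, 2 were lower and 6 were not called, where 30.7% of all genes tested were called (12.7% higher and 18.0% lower). With the replicate number as a block, 3 members were higher and 2 lower, where 46.4% of all genes were called. The groups did not overlap for 5 of the 10 members, against 44.1% of all genes. The median log2 difference was -0.08 over the members and 0.02 over all genes. These shares were near those of all genes. The authors' deposited table gave log2 fold changes of 2.53 for Hlf, -0.76 for Arntl, -0.49 for Tef and 0.54 for Clock.

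**Figure D1:**
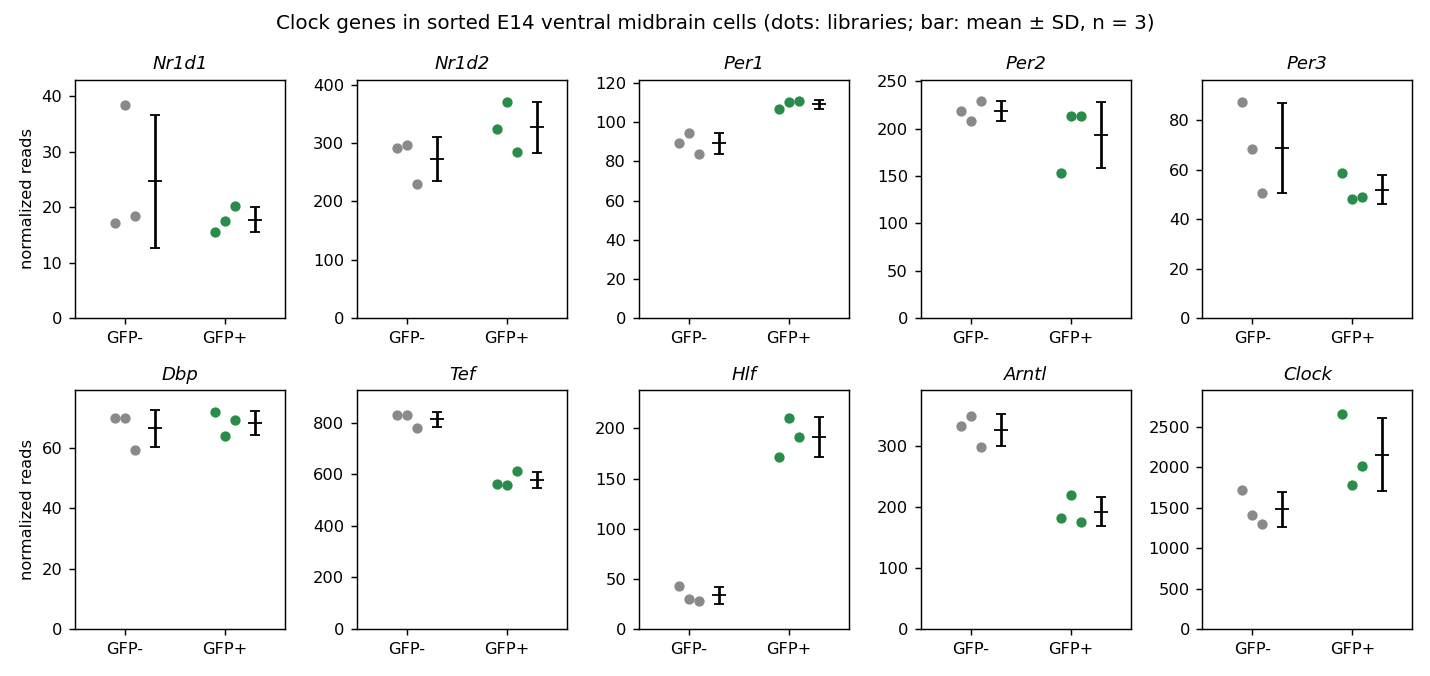
Normalized reads (vertical axes, each from 0) of the 10 clock genes in GFP- and GFP+ cells at E14, with a dot per library and bars for the mean ± SD of 3 libraries. The 3 Hlf values in GFP+ cells, 171 to 211, lie far above the 3 in GFP- cells, 28.0 to 43.1, while Arntl and Tef lie lower in GFP+ cells.

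The sort also separated cell types, and their markers differed together with these genes. Of 10 radial glia and astrocyte markers, 9 were lower in GFP+ cells, with summed levels of 6302 to 7363 normalized reads against 71089 to 83578 in GFP- cells. All 4 markers of cycling cells (244 to 360.2 against 3911 to 5517), all 5 of microglia (33.0 to 62.0 against 455 to 565) and all 5 of erythroid cells (272 to 443 against 12813 to 13562) were lower too. So were 5 of 7 oligodendrocyte lineage markers, 5 of 6 endothelial and mural markers, all 3 glutamatergic markers tested and 3 of 5 GABAergic markers, with the other 2 GABAergic markers higher. No marker was at 0 in all libraries. Their part in the differences of Hlf, Clock, Arntl and Tef was not tested.

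Other genes of the clock, a list of 30, showed 4 higher and 5 lower in GFP+ cells by limma, with 21 not called and a median log2 difference of 0.16. The 30.7% of all genes called is the same background. Higher were Rora, a receptor that competes with the REV-ERBs for their element (0.80, SE 0.15), Gsk3b, a kinase of clock proteins (0.32), and the outputs Lonrf3 (1.18) and Mtss1 (0.45). Lower were Bhlhe40, a repressor of the CLOCK and BMAL1 dimer (-2.17, SE 0.22), Rorb (-1.45), the deubiquitinase gene Usp2 (-2.95), the cell cycle kinase gene Wee1 (-1.36) and Cry1 (-0.27, limma Benjamini-Hochberg adjusted p = 0.0456). The Cry1 call was lost on leaving out any library but GFP- replicate 1 (-0.21 to -0.30). The RORs thus divided, with Rora at 437 to 681 normalized reads in GFP- and 926 to 1093 in GFP+ cells and Rorb at 274 to 446 and 112 to 148. With the replicate number as a block, 13 of the 30 were higher and 5 lower, where 46.4% of all genes were called. Npas2, a relative of Clock that can take its place, was at only 0.875 to 3.23 normalized reads in GFP- cells. In GFP+ libraries it was at 3.19, 5.98 and 28.7 from lowest to highest. The groups thus overlapped, and the highest GFP+ library stood far above the others. The limma adjusted p for Npas2 was 0.0882, or 0.0285 with the block. Npas2 also passed by edgeR (2.71) and DESeq2 (2.74) on recovered reads.

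The time series followed GFP+ cells over the last days before birth and to the day of birth. Nr1d2 was higher at each later age, and Tef and Arntl were highest at P0. Hlf was highest at E14, and Per2 and Clock overlapped between all ages. The 9 libraries were fitted together with limma over 10781 genes. The comparisons share libraries (E14 to E16 and E14 to P0 share E14, and E16 to P0 shares a group with each), so the values below are given side by side.

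Nr1d2, the gene that led to the choice of these genes, was at 407, 397 and 487 normalized reads in E14 replicates 1 to 3, at 598, 575 and 573 at E16 and at 1548, 1541 and 1655 at P0. The 3 ages did not overlap, and within P0 the libraries lay close together. The means were 430.2 ± 49.2, 582 ± 13.7 and 1581 ± 64.4 (SD, n = 3). The log2 difference was 0.44 (SE 0.10) from E14 to E16 and 1.44 (SE 0.10) from E16 to P0, a 2.71-fold difference that ranked 15 of 10781 genes from the highest. From E14 to P0 it was 1.88, or 3.68-fold, and it ranked 95. With each library of the ages compared left out in turn, the E16 to P0 value ranged from 1.41 to 1.46. The E14 to P0 value ranged from 1.83 to 1.97. These ranges describe the spread between libraries and are no check on a gene chosen for this difference.

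Tef was at 593, 680.2 and 663 normalized reads at E14, 642, 669 and 665 at E16 and 1062, 1165 and 1148 at P0. The E14 and E16 libraries overlapped and all P0 libraries lay above them. From E16 to P0 the log2 difference was 0.77 (SE 0.09), 1.71-fold, ranking 240 of 10781, and from E14 to P0 it was 0.80. From E14 to E16 the log2 difference of 0.03 did not pass (limma Benjamini-Hochberg adjusted p = 0.818). Tef and Nr1d2 were thus both highest at P0, but between E14 and E16 the Nr1d2 libraries were apart and the Tef libraries were not.

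Arntl, the target of REV-ERB repression in the textbook loop, was at 249, 253 and 178 normalized reads at E14, 300.08, 339 and 297 at E16 and 381, 415 and 400.1 at P0. No library of one age overlapped another age, and the third E14 library was the lowest. The log2 difference from E14 to E16 was 0.47 (SE 0.14, limma Benjamini-Hochberg adjusted p = 0.0178). The call was lost without E14 replicate 3 (0.31, limma adjusted p = 0.0823) and without E16 replicate 2 (0.41, limma adjusted p = 0.0537). From E16 to P0 the difference was 0.35 (SE 0.14) and from E14 to P0 it was 0.83. Nr1d2, which encodes a repressor, and Arntl, its known target, were thus both higher at P0 than at E16.

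Hlf was at 233, 268 and 284 normalized reads at E14, 219.6, 196 and 199 at E16 and 219, 175 and 170.3 at P0. The E14 libraries lay above the others, while E16 and P0 overlapped. From E14 to E16 the log2 difference of -0.35 (SE 0.14) did not pass (limma Benjamini-Hochberg adjusted p = 0.0723), from E16 to P0 it was -0.13 (SE 0.14) and from E14 to P0 -0.48. The PAR bZIP gene that set GFP+ cells apart at E14 was thus not among those higher at birth, and Tef, lower in GFP+ cells at E14, was.

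Clock was at 3177, 2883 and 3222 normalized reads at E14, 3134, 2751 and 2545 at E16 and 3335, 3139 and 2737 at P0, with overlap between all ages. Its log2 difference from E14 to E16 was -0.14 (limma Benjamini-Hochberg adjusted p = 0.265), and from E16 to P0 it was 0.13. Per2, the only period gene measured here, was at 244, 233 and 197 at E14, 164, 212 and 221 at E16 and 270.0, 253 and 141 at P0. Its ages overlapped, and the third P0 library was the lowest of all 9. The Per2 log2 difference was -0.18 from E14 to E16 (limma adjusted p = 0.555) and 0.11 (SE 0.21) from E16 to P0, which became 0.40 without P0 replicate 3.

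Of the 5 members tested from E14 to E16 (Nr1d2 left out), 1 was higher (Arntl) and 4 did not pass by limma, where 33.0% of all genes were called (15.2% higher and 17.8% lower). From E16 to P0 the groups did not overlap for 3 of the 6 members (Nr1d2, Tef and Arntl, each higher), against 44.8% of all genes, and from E14 to P0 for 4 of 6, against 65.2%. The median log2 difference over the 6 members was -0.06 before E16, 0.24 after it and 0.39 over the whole span, beside -0.04, -0.01 and -0.05 over all genes. Since Nr1d2 was chosen for its value, nothing is read from the last 2 of these medians.

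**Figure D2:**
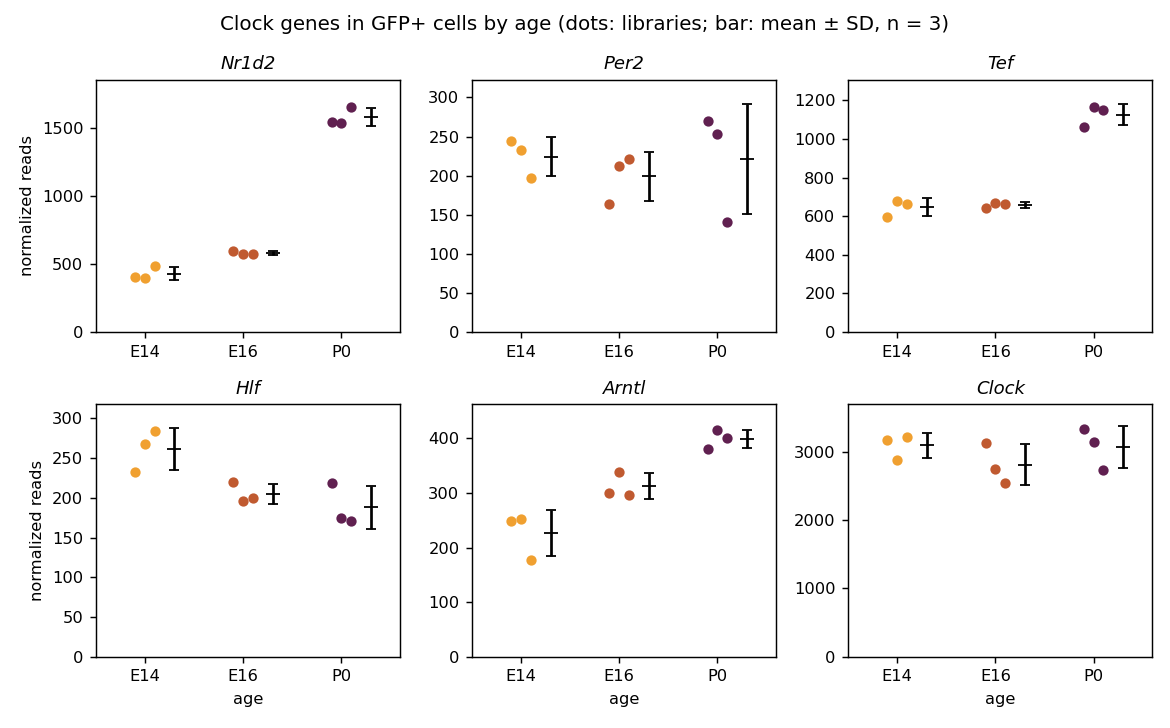
Normalized reads (vertical axes, each from 0) of the 6 clock genes measured in GFP+ cells at E14, E16 and P0, with a dot per library and bars for the mean ± SD of 3 libraries. Nr1d2 goes from 430.2 to 582 to 1581 on average and Tef is separate at P0, while Per2 and Clock overlap at all ages.

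Few markers of other cells were among the genes of the time series. Of the 10 radial glia and astrocyte markers 3 were measured there (Fabp7, Vim and Apoe), with sums of 3529 to 3800 normalized reads at E14, 2498 to 2834 at E16 and 2661 to 6391 at P0. From E16 to P0 Apoe (3.18) and Fabp7 (1.50) were higher and Vim (-1.10) was lower by limma. P0 replicate 3 stood apart, with Apoe at 725, 672 and 2216 and Fabp7 at 1438, 1081 and 3293 in P0 replicates 1 to 3. Nr1d2 in the same 3 libraries was at 1541 to 1655, and without P0 replicate 3 its E16 to P0 difference was 1.41 and that of Tef 0.76. Arntl was at 0.35 without it. Dopamine neuron marker sums were 87465 to 99690 at E14, 79769 to 89279 at E16 and 77176 to 109170.1 at P0. The sums hide changes of single markers. By limma, 7 of the 9 were lower from E14 to E16 and 1, Slc6a3 (1.06), was higher, where 33.0% of all genes were called. From E16 to P0, 4 were lower, Pitx3 (-0.53) among them, and 1, Slc18a2 (0.68), was higher, where 33.4% were called. From E14 to P0, 6 were lower and 2 higher, where 55.7% were called. Apoe in P0 replicates 1 and 2 remained above its E16 mean of 117. The part of these markers in the differences of Nr1d2, Tef, Arntl and the other genes was not tested.

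Of the other 30 clock genes, 20 were measured in the time series. From E16 to P0, 1 was higher and 4 were lower by limma, where 33.4% of all genes were called (16.8% higher and 16.6% lower). The largest difference was in Nfil3, which encodes a repressor that binds the D-box in competition with the PAR bZIP factors and is itself a target of the REV-ERBs. Nfil3 was at 687, 862 and 695 normalized reads at E16 and 363, 393 and 369 at P0, with no overlap. Its log2 difference was -0.99 (SE 0.11, limma Benjamini-Hochberg adjusted p = 2.41e-05). Nfil3 was lower at P0 than at E16, while Tef, whose product binds the same sequence, was highest at P0. A link between these differences was not tested.

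Rora rose from 1584 ± 101 to 1983 ± 163 normalized reads (SD, n = 3) from E16 to P0, a log2 difference of 0.32 (SE 0.09, limma Benjamini-Hochberg adjusted p = 0.0110). Nono (-0.48), a cofactor of the period proteins, and Por (-0.38), an output gene, were lower, as was Mtss1 (-0.21, limma adjusted p = 0.0454), whose call was lost on leaving out any of 6 libraries, E14 replicates 1 and 2, E16 replicates 2 and 3 and P0 replicates 2 and 3 (-0.15 to -0.24). The Mtss1 call was also lost under median-ratio scaling (-0.20, limma adjusted p = 0.0636) and with only the 2 ages fitted (limma adjusted p = 0.0746). The cryptochromes, which repress the dimer together with the period proteins, did not pass, at -0.22 for Cry1 (limma adjusted p = 0.0564) and 0.19 for Cry2 (limma adjusted p = 0.191). The median over the 20 genes was -0.00, beside -0.01 over all genes.

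From E14 to E16, 1 of the 20 was higher, Tspan4 (0.48), and 5 were lower by limma, among them Sfpq (-0.56) and Sirt1 (-0.46), against 33.0% of all genes called. From E14 to P0, 4 were higher and 8 lower by limma, where 55.7% of all genes were called (25.1% higher and 30.6% lower). Higher were Rora (0.51), Tspan4 (0.48), Cry2 (0.33) and Hdac3 (0.22). The call of Cry2 was lost without E14 replicate 2 or 3 or P0 replicate 3 (0.27 to 0.31), and that of Hdac3 without E14 replicate 1 or 2, E16 replicate 3 or P0 replicate 2 or 3 (0.17 to 0.22). The lower ones were led by Nfil3 (-0.94), Nono (-0.75) and Por (-0.66).

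**Figure D3:**
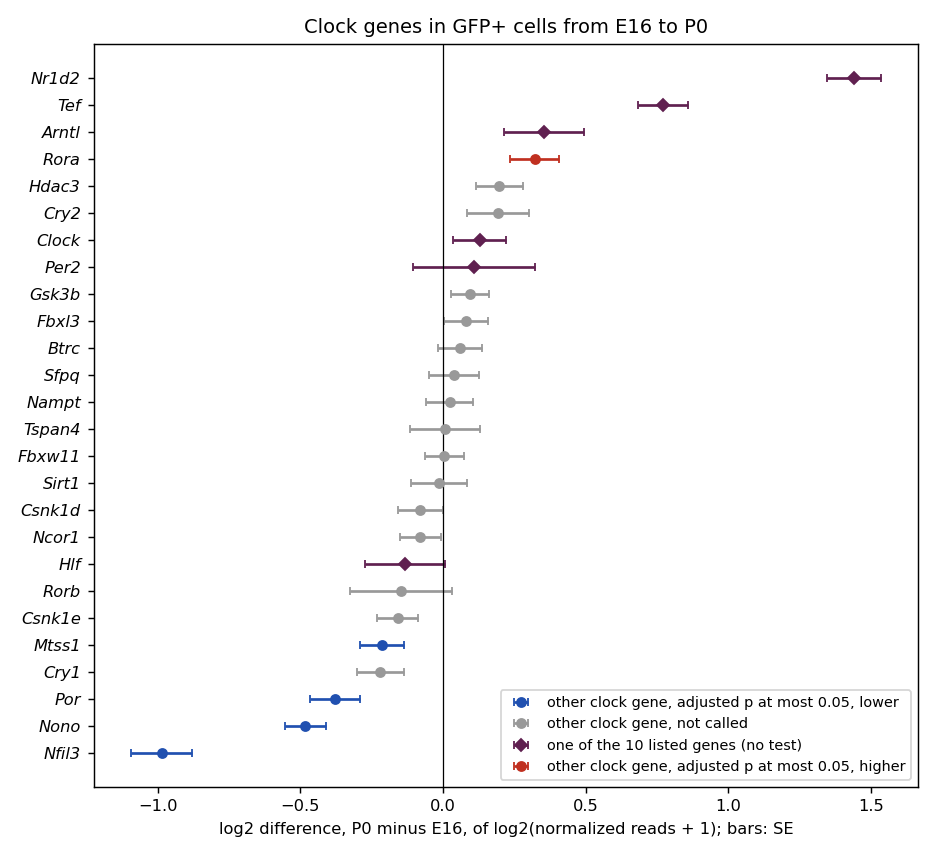
Log2 difference, P0 minus E16, of log2(normalized reads + 1) in GFP+ cells for the members and the other clock genes measured in the time series, with bars for the standard error. Nr1d2 at 1.44 is farthest to the right and Nfil3 at -0.99 farthest to the left.

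Levels of different genes were compared per length, as reads per kilobase of merged exons scaled to the library total over 10700 genes present in both tables (RPKM). In GFP+ cells of the sorted experiment the order was Clock at 7.77 ± 1.56, Tef at 3.64 ± 0.216, Nr1d2 at 2.99 ± 0.397, Per2 at 1.64 ± 0.310, Hlf at 1.42 ± 0.158, Arntl at 1.27 ± 0.160, Dbp at 1.13 ± 0.0601, Per1 at 0.960 ± 0.0286, Nr1d1 at 0.287 ± 0.0398 and Per3 at 0.267 ± 0.0276 (SD, n = 3). Neighbours whose libraries overlapped were Per2 and Hlf, Hlf and Arntl, Arntl and Dbp, and Nr1d1 and Per3. In GFP- cells Tef at 5.56 ± 0.272 was level with Clock at 5.80 ± 0.903, their libraries overlapping. Hlf was last there at 0.271 ± 0.0685, overlapping both Per3 at 0.385 ± 0.106 and Nr1d1 at 0.432 ± 0.213. Of the REV-ERB genes, Nr1d2 was above Nr1d1 in both cell groups, with no overlap.

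In the time series Nr1d2 changed its place among the 6 genes. At E14 it stood at an RPKM of 3.19 ± 0.283, overlapping Tef at 3.29 ± 0.206 and below Clock at 9.04 ± 0.493. At E16 it was second at 4.44 ± 0.121, and at P0 it was first at 11.95 ± 0.370, above Clock at 9.16 ± 1.04 with no overlap. In normalized reads, not scaled to length, Clock was above Nr1d2 at P0, with means of 3071 and 1581. The order by RPKM thus rests on the merged exon lengths, 13.7 kb for Clock and 5.41 kb for Nr1d2. The lengths of the transcripts present were not measured. Arntl went from 1.21 ± 0.251 at E14, where it overlapped Per2 at 1.54 ± 0.206, to 2.17 ± 0.0753 at P0, above Per2 at 1.55 ± 0.505. Since the tables come from separate experiments, no level is compared between them.

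**Figure D4:**
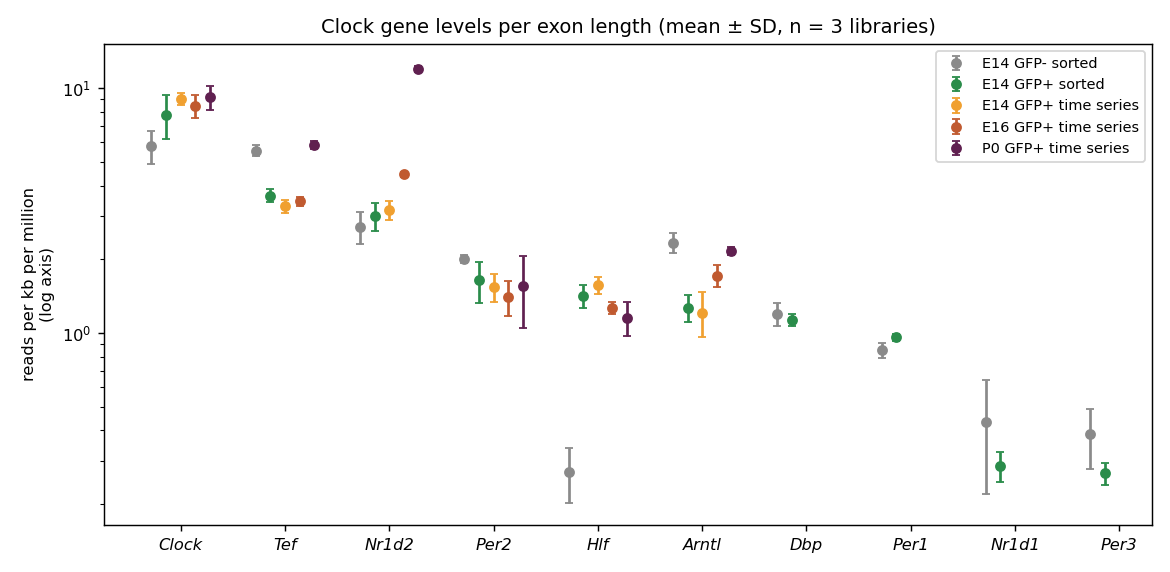
Mean level of each clock gene in RPKM (log axis), with SD bars over 3 libraries, for GFP- and GFP+ cells at E14 in the sorted experiment and GFP+ cells at E14, E16 and P0 in the time series. Nr1d2 at P0, at 11.95, is above Clock at 9.16.

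Some of these reads could come from overlapping genes on the opposite strand, since the use of strand in counting is not given in the sources used here. Dbp shared 539 exon bases (18.0% of its exons) with Sphk2, Nr1d1 263 (8.55%) with Thra, Tef 193 (2.45%) with Gm17597 and Arntl 33 (0.439%) with Gm45355. Nr1d2, Hlf and Clock shared none. Circular RNAs, also measured in these libraries, were listed for Clock alone among the 10 members, with 4 circRNAs and 19 reads over the 9 time series libraries and 3 circRNAs and 6 reads over the 3 GFP- libraries. At this depth no difference in Clock circRNAs could be read.

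The genes whose pattern over the 9 time series libraries was most like that of Nr1d2 were found by Pearson's r on log2(normalized reads + 1) over 10775 genes, the 6 members left out, as a description with no test. Among the closest were Ssx2ip (0.994), Washc2 (0.993), Dnajc18 (0.991) and Ermp1 (0.990). The E16 to P0 log2 differences of these 4, 0.78, 0.33, 0.28 and 0.67, were all smaller than that of Nr1d2. In all, 179 genes had an r above 0.95, and the 9 libraries share 3 ages. Among the members r with Nr1d2 was 0.966 for Tef, 0.813 for Arntl, 0.120 for Clock, -0.0849 for Per2 and -0.710 for Hlf.

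Genes that answer glucocorticoids and immediate early genes were examined as well. They serve as readouts of signals and are not taken to act on period genes themselves. The glucocorticoid list also held the receptor genes Nr3c1 and Nr3c2. Of 14 glucocorticoid response genes tested in the sorted experiment, 1 was higher in GFP+ cells (Fkbp5, 0.42) and 7 were lower by limma, led by Pdk4 (-2.99), Mt1 (-2.88) and Zbtb16 (-1.75), where 30.7% of all genes were called (12.7% higher and 18.0% lower). Of 14 immediate early genes 8 were lower and 6 did not pass, the lower ones led by Atf3 (-2.90), Fos (-2.33) and Egr2 (-2.08), against the same background. With the replicate number as a block, where 46.4% of all genes were called, 1 glucocorticoid response gene was higher and 9 were lower, and 1 immediate early gene was higher and 11 were lower. In the time series 6 glucocorticoid response genes were measured: 3 were higher from E14 to E16 (Nr3c1 0.61, Tsc22d3 0.48 and Errfi1 0.31), where 33.0% of all genes were called, and 3 were lower from E16 to P0 (Sgk1 -0.59, Errfi1 -0.32 and Fkbp5 -0.31), where 33.4% were. Of 3 immediate early genes measured there, Btg2 (0.34) was higher and Jund (-0.43, limma adjusted p = 0.0468) lower from E16 to P0. The Jund libraries overlapped, at 1128 to 1791 normalized reads at E16 and 896 to 1229 at P0. Beside the genes of both lists, Per1, Per2 and Per3 did not pass between GFP+ and GFP- cells, nor did Per2 from E14 to E16. A link between these lists and the period genes was not tested.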

How the data were processed

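Per the labels' protocols, sorted ventral midbrain cells of Pitx3-GFP mice gave total RNA that was depleted of ribosomal RNA. Libraries were made from it with ScriptSeq v2 and sequenced, per the same protocols. Trim Galore, TopHat2 and DESeq2 are listed without versions, with the build GRCm38, per the submitters' processing notes. The gene values are a signal that the authors deposited as normalized reads. Within a library the values lay a constant step apart, and dividing by it gave whole reads within 0.1 for 100% of values, which gave the depth. The authors also deposited log2 fold changes and p-values, used only where their table is named. The deposited circRNA signal was used to count reads of the members.

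Differences on the log2(normalized reads + 1) scale were tested two-sided by limma (version 3.58.1 in R 4.3.3, with a trend) on genes with a mean of at least 5. The threshold was 0.05 after Benjamini-Hochberg adjustment over the genes tested. The 6 sorted and the 9 time series libraries were fitted separately. In the sorted table, deviations of columns with the same number correlated at 0.234 to 0.645, and those with different numbers at -0.542 to 0.395. These ranges overlap, so pairing by number was not established. The number was used as a block there as an alternative, and a blocked value or count is given where it changed calls. As the number in those column names fits different samples by title and by description, columns were assigned to groups only. Alternatives were a pseudocount of 5, no filter, median-ratio scaling, the block, leaving out each library, fitting only the 2 ages compared and, for sorted reads, edgeR 4.0.16 and DESeq2 1.42.0. The fit was tested on simulated data. Gene positions and exon lengths come from GENCODE M21. The members and gene lists were chosen with earlier results of these data known. All 10 members and any of the 30 other clock genes could be named, with up to 3 called genes per direction of the glucocorticoid and immediate early lists and the 5 genes most like Nr1d2, of which 1 is not reported here.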

Additional observations from a re-analysis of the deposited data

How the results depend on the processing

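With the replicate number as a block, 8466 genes were called between GFP+ and GFP- cells (4149 higher, 4317 lower) in place of 5599, and 18 of the other clock genes in place of 9. On recovered reads edgeR called 5541 genes and DESeq2 5502 in the sorted experiment. In the fit without a block, the member calls of the sorted experiment numbered 4, and leaving out each library in turn gave 3 to 4. Leave-one-out counts for all genes were 4185 to 5773 in the sorted experiment, 2706 to 3722 from E14 to E16, 2496 to 3660 from E16 to P0 and 5212 to 6356 from E14 to P0. For the other clock genes they were 8 to 12, 5 to 6, 4 to 6 and 9 to 13. Members called from E14 to E16 numbered 0 to 1. As a description only, the Nr1d2 difference ranged from 1.41 to 1.46 from E16 to P0 and from 1.83 to 1.97 from E14 to P0. In the time series, too, the numbers were not shown to pair the libraries (same-number correlations -0.113 to 0.245). The replicate block gave 3620, 3757 and 6098 genes there. As each number occurs once per age, the block could not change a log2 difference. Of single-gene results under all alternatives, 1484 kept their side of the threshold, 26 passed it, 33 lost it and none reversed. Cry1 lost its call in the sorted experiment without each library but GFP- replicate 1, without the filter and by DESeq2. Nr1d1, at 13 to 44 reads a library, is limited by depth.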
